A study of Mus musculus with 28 samples.

Results

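The Hox genes of mouse mammary epithelium and of tumours driven by mutant PIK3CA were examined across 28 expression arrays in 11 groups. The members were all genes whose single annotated symbol has the form Hoxa, Hoxb, Hoxc or Hoxd followed by a number, each read from its brightest probe set (by the mean of the 28 arrays). This gave 34 Hox genes among 17097 genes: 9 of cluster a, 10 of cluster b, 6 of cluster c and 9 of cluster d. The rule uses gene symbols and, for the probe set, mean brightness.

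The study asked how the PIK3CA-H1047R oncogene affects the lineage of mammary cells and the makeup of the tumours that follow. Every group carried a tamoxifen-inducible Cre, driven by the keratin 5 promoter (K5CREERT2, basal cells) or the keratin 8 promoter (K8CREERT2, luminal cells), and a RosaYFP reporter, and the mice were females given 3 injections of 5 mg tamoxifen from 4 to 5 weeks of age. Tumour cells came from K8CREERT2 mice with PIK3CA-H1047R and p53flox/flox (K8PIKp53 tumours, n = 2), from K5CREERT2 mice with PIK3CA-H1047R (K5PIK tumours, n = 3) and from K8CREERT2 mice with PIK3CA-H1047R (K8PIK tumours, n = 7), with no time after tamoxifen in the labels. YFP-positive cells with PIK3CA-H1047R were sorted by FACS as luminal and as basal cells 10 months after tamoxifen from K5CREERT2 mice (K5PIK luminal and K5PIK basal, n = 2 each), and as basal and as luminal cells 8 weeks after it from K8CREERT2 mice (K8PIK basal and K8PIK luminal, n = 2 each). The controls, with the reporter and without the oncogene, were K5CREERT2 basal cells at 10 months and 8 weeks (K5YFP basal, n = 2 each) and K8CREERT2 luminal cells at 10 months and 8 weeks (K8YFP luminal, n = 2 each). The labels do not say whether replicates came from separate mice, so p-values measure the spread between these samples only. Within any comparison of a K8PIK basal with a K5YFP basal sample, or of a K5PIK luminal with a K8YFP luminal sample, the oncogene and the Cre driver change together and cannot be told apart. The same holds for lineage and Cre driver between the normal cells, since all normal basal cells are K5CREERT2 and all normal luminal cells K8CREERT2.

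Hox genes encode homeodomain transcription factors that give cells a position along the body axis. They lie in 4 clusters, in an order that follows where along the axis each is active, and genes at the same place in different clusters are paralogues. HOX proteins bind DNA together with PBX, MEIS and PKNOX cofactors, Polycomb complexes hold the clusters silent, Trithorax complexes keep them active, and retinoic acid turns on the anterior genes in embryos. In the mouse mammary gland the paralogue group of Hoxa9, Hoxb9 and Hoxd9 is known to be needed for growth of the gland in pregnancy, and Hoxc8 is known to take part in placing the mammary rudiments of the embryo. By paralogue number the members fell into 11 anterior genes (numbers 1 to 4), 9 central genes (5 to 8) and 14 posterior genes (9 to 13).

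The promoters of 3 of the genes on which the results turn are shown, since Hoxd9 differed between normal basal and luminal cells at 10 months and Hoxa3 and Hoxa7 were both higher in K8PIKp53 tumours than in normal luminal cells. Each is the RefSeq sequence from 250 bases before to 50 bases after the annotated start on build GRCm38.p6, at chr2:74697513-74697812 (plus strand) for Hoxd9, chr6:52213018-52213317 (minus strand) for Hoxa3 and chr6:52218524-52218823 (minus strand) for Hoxa7. Capitals mark matches, on either strand, to the GC box GGGCGG, which Hoxd9 holds 2 times.
Hoxd9: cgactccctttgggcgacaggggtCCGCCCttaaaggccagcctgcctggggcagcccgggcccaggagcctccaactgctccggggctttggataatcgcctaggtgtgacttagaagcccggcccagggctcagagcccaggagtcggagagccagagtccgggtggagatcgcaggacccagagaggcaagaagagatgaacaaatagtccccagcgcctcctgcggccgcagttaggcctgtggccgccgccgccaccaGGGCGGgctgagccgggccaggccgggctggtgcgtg
Hoxa3: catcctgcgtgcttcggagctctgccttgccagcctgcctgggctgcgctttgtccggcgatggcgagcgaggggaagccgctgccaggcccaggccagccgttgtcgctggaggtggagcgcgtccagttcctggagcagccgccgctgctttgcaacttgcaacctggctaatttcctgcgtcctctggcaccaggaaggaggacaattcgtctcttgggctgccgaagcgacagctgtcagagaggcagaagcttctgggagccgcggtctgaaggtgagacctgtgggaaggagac
Hoxa7: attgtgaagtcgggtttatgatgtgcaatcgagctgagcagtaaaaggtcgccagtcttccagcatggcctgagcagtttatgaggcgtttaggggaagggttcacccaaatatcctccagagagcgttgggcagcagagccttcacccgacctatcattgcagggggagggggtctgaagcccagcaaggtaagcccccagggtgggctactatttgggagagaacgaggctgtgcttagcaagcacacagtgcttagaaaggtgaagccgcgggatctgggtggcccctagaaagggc
No match to GGGCGG, to the HOX-PBX motif TGATTNAT, to the retinoic acid receptor element AGGTCA or to the TATA box TATAAA stood in the Hoxa3 and Hoxa7 windows, and Hoxd9 held none of the last 3; the motifs searched do not overlap one another in these windows. Of 32851 promoters of this length, 35.7% held GGGCGG, 16.3% AGGTCA, 13.6% TATAAA and 3.22% TGATTNAT. Promoters were listed for 21 of the 34 members, 23 promoters in all, and 9 of the 23 held GGGCGG, 7 AGGTCA, 4 TATAAA and 2 TGATTNAT. Both the Hoxd9 and the Hoxa3 window hold 20 CG dinucleotides and the Hoxa7 window 9, beside a median of 14 (4 to 45) over the 23 Hox promoters and of 7 over all promoters.

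Most Hox genes were dim on these arrays and varied little between them. Values are log2 expression as deposited, so 1 unit is a doubling, and levels of different genes cannot be set against each other because each probe set has its own brightness. Only 6 of the 34, Hoxa7, Hoxb3, Hoxb4, Hoxb13, Hoxc9 and Hoxd9, lay above the 40th percentile of the array (3.89 to 3.99) on all 28 arrays. The 13 genes Hoxa2, Hoxa4, Hoxa5, Hoxa10, Hoxb1, Hoxb7, Hoxb9, Hoxc4, Hoxc13, Hoxd1, Hoxd3, Hoxd10 and Hoxd11 lay above it on 0 arrays. The median spread from the lowest to the highest array was 0.983 over the 34 Hox genes and 1.35 over all 17097 genes. The widest spreads were 3.68 for Hoxc8, 2.71 for Hoxd9 and 2.26 for Hoxc5, and the narrowest were 0.399 for Hoxd1 and 0.399 for Hoxd10. Genes were tested where they passed that percentile on at least 2 arrays of a fit, which 14 Hox genes did among the 16 sorted arrays, 18 among the 12 tumour arrays and 19 over all 28.

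**Figure D1:**
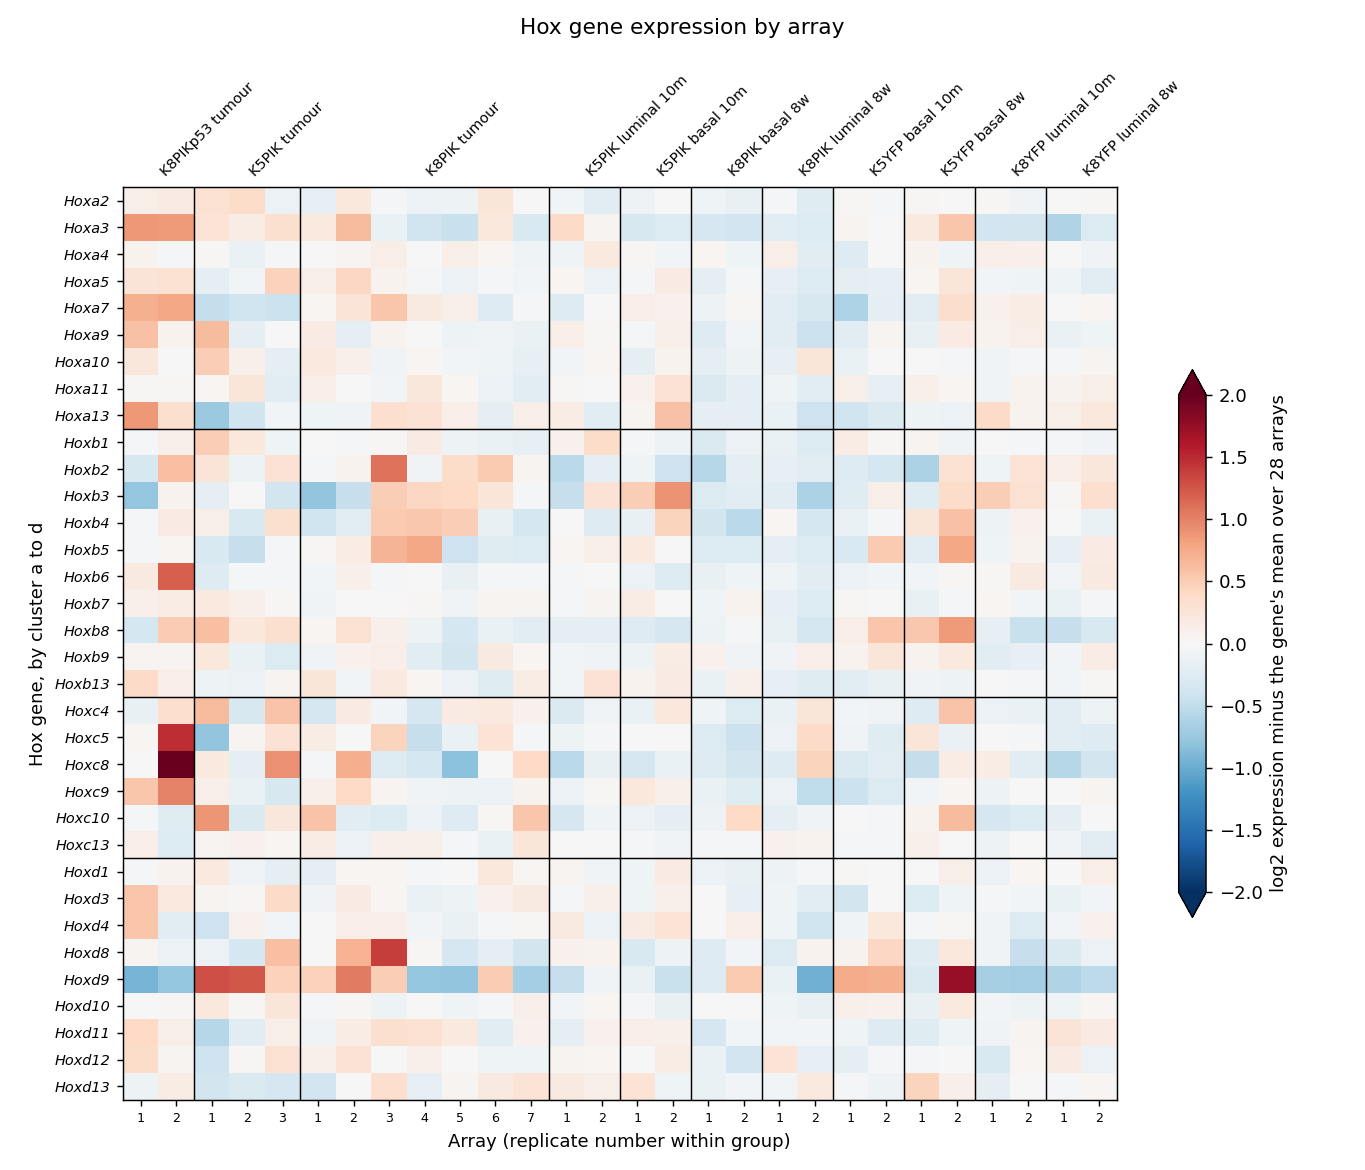
Log2 expression of each of the 34 Hox genes on each of the 28 arrays, minus the gene's own mean over the 28 arrays; genes run down by cluster, arrays run across by group, and the colour scale stops at 2 in either direction. Most cells are pale; the deepest are Hoxc8 and Hoxc5 in K8PIKp53 tumour replicate 2 (6.47 and 5.81) and Hoxd9 in K5YFP basal 8 weeks replicate 2 (6.79).

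The sorting gates held the cells their labels name. The mean of 9 basal markers was 9.66 to 10.4 in the basal gates, against 5.58 to 7.26 in the luminal gates, and the mean of 10 luminal markers was 6.28 to 7.75 in the basal gates, against 8.92 to 9.88 in the luminal gates. In normal cells at 8 weeks, basal over luminal, the log2 difference was 3.69 for Krt5, 3.23 for Krt14 and 3.85 for Trp63, and -0.50 for Krt8, -0.90 for Krt18, -3.78 for Foxa1, -2.54 for Elf5 and -1.90 for Esr1, all called. The gates also differed in markers of other cells: the mean of 10 endothelial markers was 6.13 to 7.46 in K5YFP basal cells, against 4.78 to 5.76 in K8YFP luminal cells. The mean of 9 fibroblast markers was 5.81 to 6.79 in K5YFP basal cells, against 4.91 to 5.85 in K8YFP luminal cells. For 3 pericyte markers it was 5.75 to 6.86, against 4.62 to 5.51. Adipocyte markers (2 measured) were under the 40th percentile on every array, and 8 immune markers averaged 4.48 to 6.59 over the arrays. In sorted populations, fewer cells of a type and less RNA per cell cannot be told apart. Pik3ca, the mouse gene of the kinase whose mutant form was expressed, averaged 7.33 to 8.20 over the 11 groups.

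Normal K5YFP basal cells had more Hoxa3 at 8 weeks and more Hoxd9 at 10 months than K8YFP luminal cells, and less Hoxa13 at 10 months. At 8 weeks 1 of 14 tested Hox genes was called (adjusted p under 0.05, limma with Benjamini-Hochberg adjustment over all genes tested, two-sided), beside 30.3% of all genes, 10.4% called higher. At 10 months 2 of 14 were called, 1 higher and 1 lower, beside 43.4% of all genes, 17.6% higher and 25.8% lower. Over all 34 members with no filter, 3 differed by more than 0.5 at 8 weeks and 5 at 10 months, beside 32.2% and 39.2% of all genes.

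Hoxd9, a posterior gene of cluster d, read 5.80 and 5.77 in K5YFP basal cells at 10 months, against 4.38 and 4.35 in K8YFP luminal cells. Both basal arrays stood clear of both luminal arrays, and the difference was 1.42 ± 0.49 (SE; adjusted p = 0.0335, limma). At 8 weeks it read 4.76 and 6.79 in basal cells, against 4.44 and 4.52 in luminal cells. The groups did not overlap there either, but the basal arrays lay far apart, and the difference of 1.30 ± 0.49 was not called (adjusted p = 0.0627). How many of all genes have groups that do not overlap was not counted. Groups this small often stand apart, so non-overlap alone is no result here or below. With any of the 4 arrays at 10 months left out in turn the difference stayed between 1.40 and 1.43 and was no longer called (adjusted p 0.0976 to 0.121). The 8-week K5YFP basal array with 6.79 was also the one of that group with more endothelial signal (mean 7.46, against 6.28 on the other). At 10 months the basal array with more endothelial signal (7.16, against 6.13) had the slightly lower Hoxd9 (5.77, against 5.80). With the endothelial mean as a covariate the 10-month difference was 0.58 (adjusted p = 0.519).

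Hoxa3, an anterior gene of cluster a, read 4.66 and 5.02 in K5YFP basal cells at 8 weeks, against 3.86 and 4.19 in K8YFP luminal cells. The groups did not overlap, with a difference of 0.82 ± 0.18 (adjusted p = 0.00461). At 10 months it read 4.52 and 4.47 in basal cells, against 4.08 and 4.09 in luminal cells, a difference of 0.41 ± 0.18 that was not called (adjusted p = 0.0777). The 8-week call rests on K8YFP luminal replicate 1, without which the difference was 0.65 (adjusted p = 0.0557), and on the brightest of 4 Hoxa3 probe sets; the 3 others, too dim to be tested, differed by 0.08, 0.02 and -0.01.

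Hoxa13, the last gene of cluster a, read 3.84 and 3.96 in K5YFP basal cells at 10 months, against 4.63 and 4.32 in K8YFP luminal cells. The 3.84 lay under the 40th percentile of the array. The difference was -0.57 ± 0.20 (adjusted p = 0.0373). Without any of the 4 arrays in turn it was not called (-0.41 to -0.73, adjusted p 0.0503 to 0.232). Hoxb8, a central gene of cluster b, was too dim to be tested among the sorted arrays. It read 3.91 and 4.23 in K5YFP basal cells at 8 weeks, against 2.92 and 3.07 in luminal cells, and 3.51 and 3.94 in basal cells at 10 months, against 3.21 and 2.94 in luminal cells. All 4 basal arrays were above all 4 luminal arrays, but of the 8 only the basal array with 4.23 passed the 40th percentile, so no size is given. Its probe set is of a kind that may detect more than 1 transcript.

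No Hox gene was called for a change of the lineage difference with age, 0 of 14 for 10 months minus 8 weeks, beside 0.0532% of all genes. At an unadjusted p under 0.05 stood 0 of 14, beside 12.6% of all genes. The differences were negative in 11 of the 14, with a median of -0.25, beside -0.02 over all genes, and ran from -0.56 (Hoxa7) to 0.25 (Hoxd4). Between 10 months and 8 weeks themselves, 0 of 14 were called in K5YFP basal cells (1.27% of all genes; at an unadjusted p under 0.05, Hoxa7 and Hoxb4, and 20.1% of all genes), and 0 of 14 in K8YFP luminal cells (0.0608% of all genes; at an unadjusted p under 0.05, 0 Hox genes and 9.33% of all genes).

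**Figure D2:**
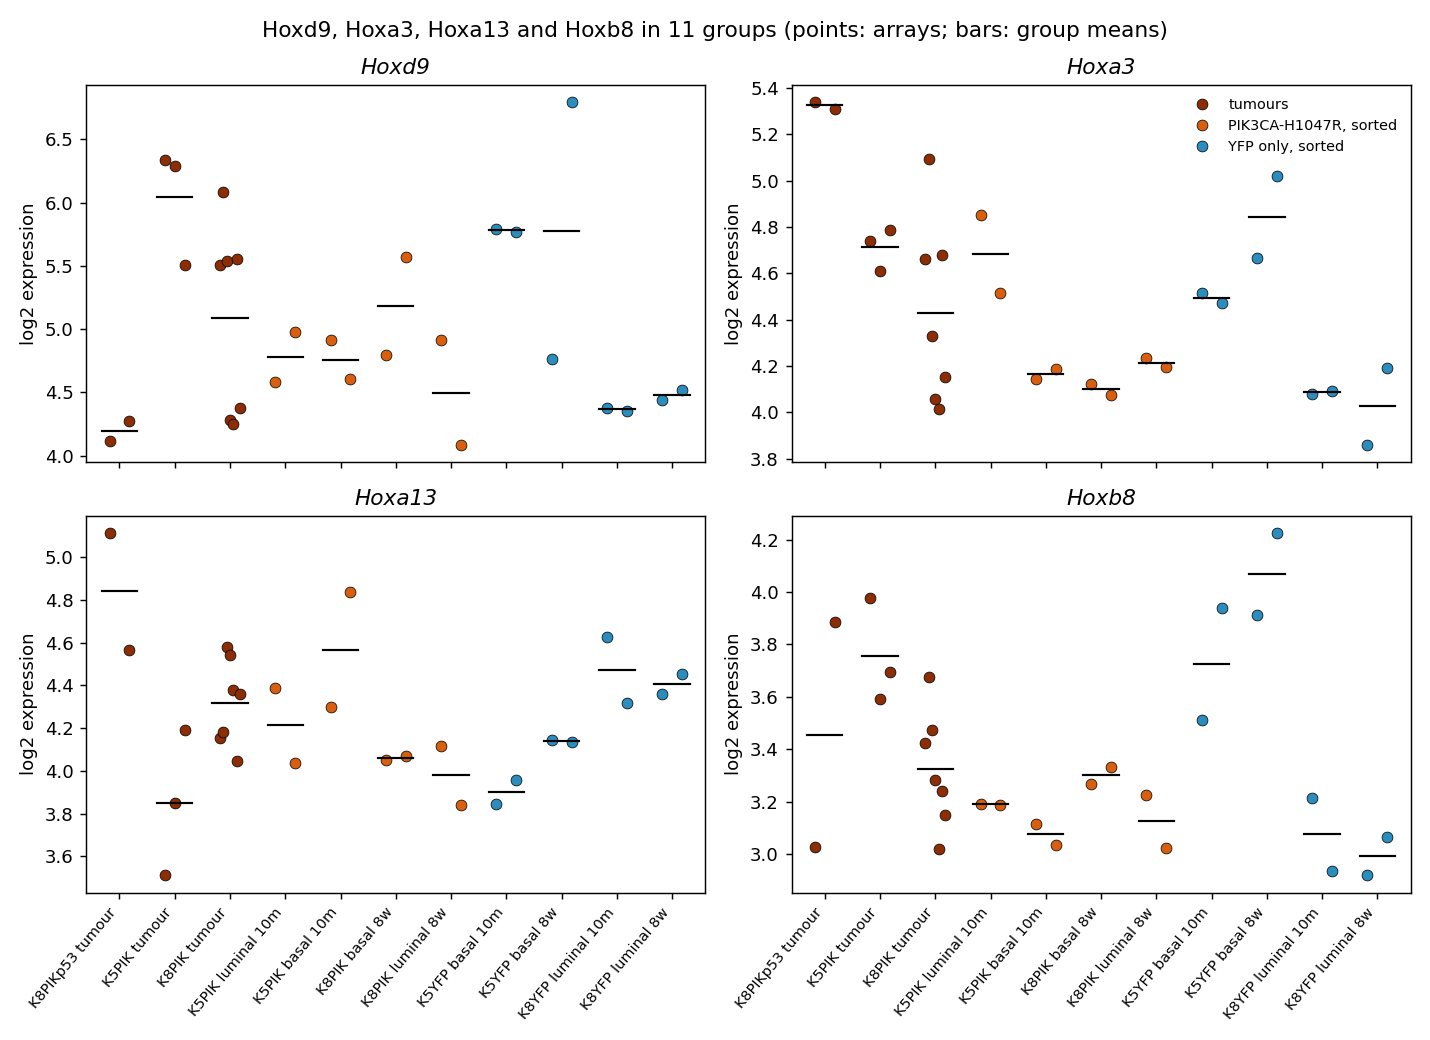
Log2 expression of Hoxd9, Hoxa3, Hoxa13 and Hoxb8 (vertical axes) in the 11 groups (horizontal axis); points are arrays and horizontal bars group means. The Hoxd9 group mean is lowest in K8PIKp53 tumours (4.12 and 4.28), Hoxa3 is highest there (5.34 and 5.31), and the Hoxb8 values of K5YFP basal cells (3.51 to 4.23) lie above those of K8YFP luminal cells (2.92 to 3.21).

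K5PIK basal cells had more Hoxa13 and Hoxc9 than K5YFP basal cells. In K5PIK basal over K5YFP basal cells at 10 months, 2 of 14 tested Hox genes were called, both higher, beside 16.3% of all genes, 8.28% higher. Hoxa13 read 4.30 and 4.84 in K5PIK basal cells, against 3.84 and 3.96 in K5YFP basal cells, a difference of 0.67 ± 0.20 (adjusted p = 0.0419). Hoxc9, a posterior gene of cluster c, read 5.05 and 4.95 in K5PIK basal cells, against 4.41 and 4.57 in K5YFP basal cells, a difference of 0.51 ± 0.16 (adjusted p = 0.0485). Neither gene overlapped between the groups. Hoxc9 lost its call without any of the 4 arrays in turn (0.43 to 0.59, adjusted p 0.0853 to 0.254). Hoxa13 lost it without K5YFP basal replicate 1 (0.61, adjusted p = 0.207) or 2 (0.72, adjusted p = 0.0967) or K5PIK basal replicate 2 (0.40, adjusted p = 0.315).

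Hoxd9 read 4.91 and 4.61 in K5PIK basal cells, against 5.80 and 5.77 in K5YFP basal cells, a gap of -1.02 ± 0.49 that was not called (adjusted p = 0.166). Its 2 groups did not overlap. Hoxb8 read 3.12 and 3.04 in K5PIK basal cells, against 3.51 and 3.94 in K5YFP basal cells, all under the 40th percentile. The endothelial mean was 4.33 to 5.41 in K5PIK basal cells, against 6.13 to 7.16 in K5YFP basal cells, with 6 of 10 endothelial markers called lower; with the endothelial mean as a covariate 0 Hox genes were called.

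At 10 months the Hoxa3 gap between the gates had the opposite sign in K5PIK cells and in YFP cells. Hoxa3 read 4.85 and 4.51 in K5PIK luminal cells, against 4.15 and 4.19 in K5PIK basal cells (0.52 ± 0.18, adjusted p = 0.0503, not called). The basal-minus-luminal gap differed between K5PIK and YFP cells by -0.93 ± 0.25 (adjusted p = 0.0445), the 1 call among 14 Hox genes, beside 7.15% of all genes, 1.96% lower. The call was lost without any 1 of 7 of the 8 arrays (-0.76 to -0.95, adjusted p 0.0713 to 0.154), and kept without K5PIK luminal replicate 2. The 3 other Hoxa3 probe sets, too dim to be tested, gave -0.39, -0.16 and -0.07.

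K5PIK luminal cells had 0 of 14 Hox genes called against K5PIK basal cells (23.6% of all genes), against K8YFP luminal cells (6.4%) and against K5YFP basal cells (37.3%). At an unadjusted p under 0.05 stood 2, 1 and 0 Hox genes in these comparisons, beside 34.6%, 22.4% and 46.6% of all genes. Against K8YFP luminal cells Hoxa3 was nearest to a call, with 4.85 and 4.51 in K5PIK luminal cells and 4.08 and 4.09 in K8YFP luminal cells (0.60 ± 0.18, adjusted p = 0.0628). Hoxd9, with 4.58 and 4.97 in K5PIK luminal cells, against 5.80 and 5.77 in K5YFP basal cells, was not called (adjusted p = 0.128).

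At 8 weeks no Hox gene passed the threshold in cells of K8PIK mice. K8PIK luminal over K8YFP luminal cells gave 0 of 14 (0.35% of all genes). There Hoxb3 alone of the 14 had an unadjusted p under 0.05, beside 11% of all genes, with 4.99 and 4.57 in K8PIK luminal cells, against 5.24 and 5.54 in K8YFP luminal cells. K8PIK basal over K8PIK luminal cells gave 0 of 14 (19.5% of all genes), K8PIK basal over K8YFP luminal cells 0 of 14 (28.7%) and K8PIK basal over K5YFP basal cells 0 of 14 (0.418%). At an unadjusted p under 0.05 stood 1, 0 and 3 Hox genes, beside 31.9%, 39.4% and 13.9% of all genes. In the last, Hoxa3 read 4.12 and 4.07 in K8PIK basal cells, against 4.66 and 5.02 in K5YFP basal cells (-0.74 ± 0.18, adjusted p = 0.0883), and Hoxb4, an anterior gene of cluster b, 4.95 and 4.77, against 5.56 and 5.90 (-0.87 ± 0.22, adjusted p = 0.11). Neither pair of groups overlapped. The basal-minus-luminal gap of K8PIK cells minus that of YFP cells gave 0 of 14 (0.0076% of all genes; at an unadjusted p under 0.05, Hoxa3, Hoxb4 and Hoxc5, and 9.7% of all genes).

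K8PIKp53 tumours had the most Hox calls of the comparisons made. With both directions counted together, the share of Hox genes called was close to that of all genes. Of 19 tested, 5 were called against K8YFP luminal cells of both ages, and all 5 were higher: Hoxa3, Hoxa7, Hoxc5, Hoxc8 and Hoxc9. Of all genes 24% were called and 12.1% were called higher. The median difference was 0.16 over all 34 Hox genes, tested or not, and 0.06 over all genes, and 7 of the 34 differed by more than 0.5, beside 30.8% of all genes.

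Hoxa3 read 5.34 and 5.31 in K8PIKp53 tumours, against 3.86, 4.19, 4.08 and 4.09 in K8YFP luminal cells. Both tumours were above every other array of the series, and the difference of 1.27 ± 0.22 (adjusted p = 0.000834) was called without any of the 6 arrays in turn. The 3 dimmer Hoxa3 probe sets differed by 0.15, 0.15 and 0.08. They average 2.88, 3.74 and 3.49 over the arrays, under the 40th percentile, and were too dim to be tested. The call therefore rests on the brightest of 4 probe sets. With the mean of all probe sets Hoxa3 did not pass the filter. Hoxa7, a central gene of the same cluster, read 5.76 and 5.81 in K8PIKp53 tumours, against 5.05, 5.08, 5.12 and 5.19 in K8YFP luminal cells (0.67 ± 0.18, adjusted p = 0.012). The groups were far apart beside their spread, but with either tumour left out the call was lost (0.65 and 0.70, adjusted p = 0.0783 and 0.0691).

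The 3 Hoxc genes called lie side by side among the measured genes of their cluster, and all 3 were highest in K8PIKp53 tumour replicate 2. Hoxc8 read 3.62 and 6.47 in K8PIKp53 tumours, against 3.04, 3.24, 3.76 and 3.40 in K8YFP luminal cells (1.69 ± 0.51, adjusted p = 0.0218). Tumour replicate 1 and every luminal array lay under the 40th percentile of the array, so the size of the difference is uncertain. Replicate 1 lay within the luminal range, and without replicate 2 the difference was 0.27 (adjusted p = 0.737). The call was also lost without K8YFP luminal 8-week replicate 1 (1.64, adjusted p = 0.0526) or 10-month replicate 2 (1.60, adjusted p = 0.0556).

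Hoxc5, a central gene, read 4.38 and 5.81 in K8PIKp53 tumours, against 4.12, 4.08, 4.34 and 4.31 in K8YFP luminal cells (0.89 ± 0.31, adjusted p = 0.0444). Without replicate 2 it differed by 0.17 (adjusted p = 0.771), without any of the 4 luminal arrays by 0.88 to 0.90 (adjusted p 0.0805 to 0.0837), and its second probe set, close in brightness, differed by -0.13. The call was also lost with no filter on dim genes (adjusted p = 0.0508) and with quantile normalization (adjusted p = 0.0515). Hoxc9 read 5.39 and 5.83 in K8PIKp53 tumours, against 4.84, 4.89, 4.74 and 4.84 in K8YFP luminal cells (0.78 ± 0.16, adjusted p = 0.00219). Both tumours were above all luminal arrays, and without replicate 2 the difference was 0.56 (adjusted p = 0.0626).

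On either side of them, Hoxc10 overlapped the luminal arrays and Hoxc4 was above them in replicate 2. Hoxc10 read 3.08 and 2.88 in K8PIKp53 tumours, against 2.93, 3.11, 2.78 and 2.84 in K8YFP luminal cells, and Hoxc4 2.89 and 3.38, against 2.81, 2.94, 2.93 and 2.91; both were too dim to be tested. Hoxb6, a central gene of cluster b also too dim, read 2.95 and 3.96 in K8PIKp53 tumours, against 2.70 to 2.95 in K8YFP luminal cells, and 3.96 was its highest value in the series. Replicate 2 held the highest of 28 values for 5 of the 34 Hox genes (Hoxa7, Hoxb6, Hoxc5, Hoxc8 and Hoxc9) and 7.35% of all genes, and replicate 1 for 7 (Hoxa3, Hoxa13, Hoxb13, Hoxd3, Hoxd4, Hoxd11 and Hoxd12) and 11.6% of all genes.

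**Figure D3:**
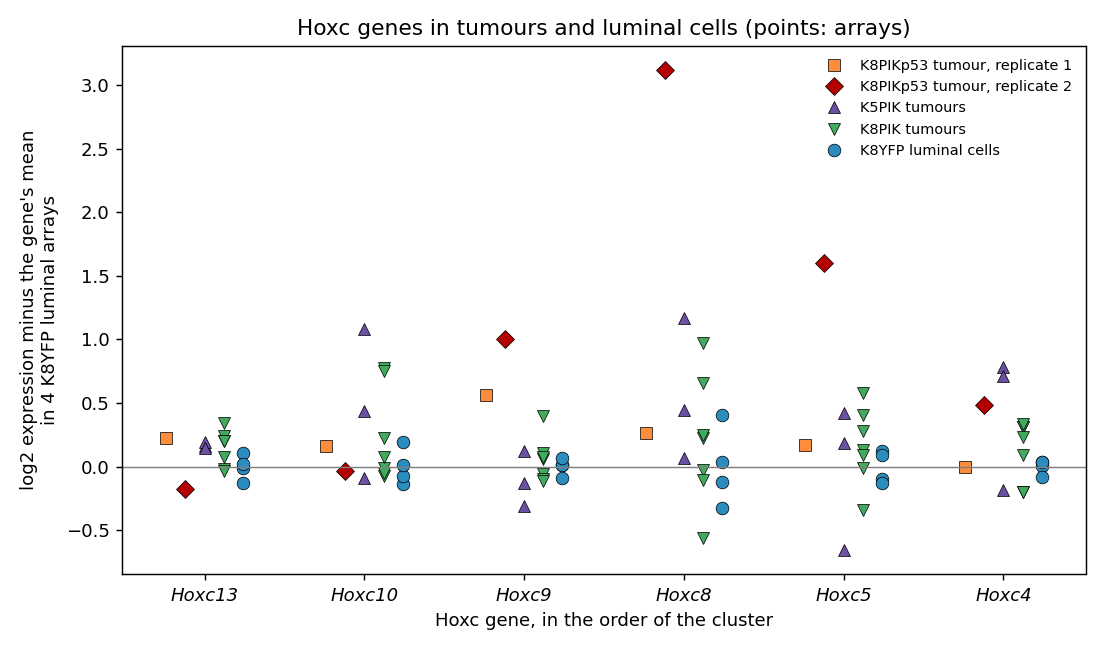
Log2 expression of the 6 measured Hoxc genes in single arrays (points), minus the gene's mean in the 4 K8YFP luminal arrays (vertical axis), with genes in the order of the cluster (horizontal axis). K8PIKp53 tumour replicate 2 stands far above the other arrays for Hoxc8 and Hoxc5, both K8PIKp53 tumours stand above the other arrays for Hoxc9, and neither does for Hoxc10 or Hoxc13.

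Fibroblast markers were also higher in K8PIKp53 tumours than in K8YFP luminal cells. The mean of 9 fibroblast markers was 7.67 and 8.40 in the K8PIKp53 tumours, with 8 of 9 above the 40th percentile in each, against 4.91 to 5.85 in K8YFP luminal cells, with 4 to 6 of 9. Of the 8 tested, 6 were called higher. Replicate 2, with the higher Hoxc5, Hoxc8 and Hoxc9, was also the replicate with the higher fibroblast mean. Hoxa3 was slightly lower in it (5.31, against 5.34 in replicate 1). K8PIK tumour replicate 2 had a similar fibroblast mean (8.42) with Hoxc5 at 4.34, and Hoxc8 was at most 4.33 in K8PIK tumours. With that mean as a covariate 0 Hox genes were called and 187 genes in all, and the differences were 0.65 for Hoxa3, 0.45 for Hoxa7, 0.42 for Hoxc5, 0.63 for Hoxc8 and 0.54 for Hoxc9 (adjusted p 0.172 to 0.657). Whether tumour cells or fibroblasts carried the Hox RNA was not tested.

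Against K8PIK tumours, which share the Cre driver and oncogene, 0 of 18 Hox genes were called (0.325% of all genes; at an unadjusted p under 0.05, the 5 genes Hoxa3, Hoxa7, Hoxa13, Hoxc8 and Hoxc9, and 19.7% of all genes). Hoxc9 read 5.39 and 5.83 in K8PIKp53 tumours, and 4.72 to 5.23 with a median of 4.89 in 7 K8PIK tumours (0.73 ± 0.18, adjusted p = 0.0973). Hoxa3 read 5.34 and 5.31, against 4.01 to 5.10 with a median of 4.33 (0.90 ± 0.26, adjusted p = 0.118), and Hoxa7 5.76 and 5.81, against 4.78 to 5.59 with a median of 5.16 (0.62 ± 0.18, adjusted p = 0.125). For these 3 genes no K8PIK tumour reached either K8PIKp53 tumour. K8PIK tumour replicate 2, the highest of its group for Hoxc9 and Hoxa3, had the highest fibroblast mean of the 7 (8.42; the group ran from 4.98).

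In K5PIK tumours over normal basal cells the 1 Hox call was Hoxd13, near the limit of measurement. Hoxd13, the last gene of cluster d, read 3.48, 3.55 and 3.51 in K5PIK tumours, against 4.29, 3.94, 3.81 and 3.73 in K5YFP basal cells of both ages (-0.43 ± 0.15, adjusted p = 0.0388). It was 1 of 19 tested Hox genes, beside 30% of all genes, 14.5% lower. All 3 tumours and 3 of the 4 basal arrays lay under the 40th percentile of the array, so the size of the difference is uncertain. The groups did not overlap, yet the call was lost without any 1 of 6 of the 7 arrays (-0.34 to -0.45, adjusted p 0.0635 to 0.148), K5YFP basal 8-week replicate 2 being the exception, and the second, dimmer Hoxd13 probe set differed by 0.23. In the same comparison 5 of 10 endothelial and 6 of 9 basal markers were lower and 8 of 10 luminal markers higher. Adjusted for the endothelial mean, Hoxd13 was not called (-0.52, adjusted p = 0.0714). Hoxd9 read 6.34, 6.29 and 5.51 in K5PIK tumours, against 4.76 to 6.79 in K5YFP basal cells (0.26 ± 0.45, adjusted p = 0.701).

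Against K5PIK basal cells, K5PIK tumours had less Hoxa13. With Hoxb8, whose call is not relied on, 2 of 19 tested were called, beside 17.3% of all genes, 7.88% higher and 9.4% lower. Hoxa13 read 3.51, 3.85 and 4.19 in K5PIK tumours, against 4.30 and 4.84 in K5PIK basal cells (-0.72 ± 0.22, adjusted p = 0.0272). Hoxb8 read 3.98, 3.59 and 3.70 in K5PIK tumours, against 3.12 and 3.04 in K5PIK basal cells (0.68 ± 0.22, adjusted p = 0.0363). It passed the filter through 2 of 28 arrays, K5PIK tumour replicate 1 being the only one of these 5. Its test thus depended on the group where it was higher, and neither the call nor the size is relied on. Neither gene overlapped between the groups. Hoxa13 lost its call without K5PIK basal replicate 2 (-0.45, adjusted p = 0.326) or K5PIK tumour replicate 1 (-0.55, adjusted p = 0.114) or 2 (-0.72, adjusted p = 0.0562). Hoxb8 lost it without K5PIK basal replicate 1 (0.72, adjusted p = 0.136) or 2 (0.64, adjusted p = 0.173) or K5PIK tumour replicate 3 (0.71, adjusted p = 0.058), and without K5PIK tumour replicate 1 it was too dim to be tested. The mean of 3 pericyte markers was 6.41 to 7.84 in K5PIK tumours, against 5.35 to 5.54 in K5PIK basal cells, and its part was not tested.

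Hoxd9 was the Hox gene with the widest range of group means after Hoxc8, and its order ran through the tumours. K5PIK tumours had the highest mean (6.04 ± 0.46 SD, n = 3), then K5YFP basal cells (5.78 ± 0.02 at 10 months and 5.78 ± 1.44 at 8 weeks, n = 2 each), K8PIK basal cells (5.18 ± 0.54, n = 2) and K8PIK tumours (5.09 ± 0.76, n = 7). Lower came K5PIK luminal (4.78 ± 0.28), K5PIK basal (4.76 ± 0.21), K8PIK luminal (4.50 ± 0.58), K8YFP luminal at 8 weeks (4.48 ± 0.06) and 10 months (4.37 ± 0.02) and K8PIKp53 tumours (4.20 ± 0.11), n = 2 each. Neighbours in this order overlapped or lay close; both K8PIKp53 tumours read below every K8YFP luminal array. Against K5PIK basal cells the K5PIK tumours were not called (1.28 ± 0.53, adjusted p = 0.104).

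The 7 K8PIK tumours differed among themselves in Hoxd9: they read 4.25, 4.28, 4.38, 5.51, 5.54, 5.56 and 6.08. No tumour lay between 4.38 and 5.51, and the lower values are close to the K8YFP luminal arrays (4.35 to 4.52). Their fibroblast means, in the same order, were 4.98, 5.59, 6.56, 6.63, 7.54, 6.33 and 8.42, lowest and highest in the same tumours as Hoxd9; the part of other cells in it was not tested. Hoxd8, next to Hoxd9 in the cluster, ran from 3.00 to 4.75 in these tumours, and Hoxb2 from 4.32 to 5.47, both highest in replicate 3.

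Between K5PIK and K8PIK tumours 0 of 18 were called, as were 0 of all 13244 genes tested by limma (0%). An unadjusted p under 0.05 was found for 4 of the 18 Hox genes and 9.25% of all genes. The 4 were Hoxa7, which read 4.57, 4.64 and 4.61 in K5PIK tumours, against 4.78 to 5.59 with a median of 5.16 in K8PIK tumours (-0.56 ± 0.16, adjusted p = 0.448), Hoxa13, Hoxd9 and Hoxd13. Hoxa7 alone of the 4 had groups that did not overlap. K8PIK tumours over K8YFP luminal cells gave 0 of 19 (10.6% of all genes), and over K8PIK luminal cells 0 of 19 (2.5%). At an unadjusted p under 0.05 stood Hoxa3 (0.37 ± 0.16) in the first, beside 25.4% of all genes, and Hoxa7 and Hoxc9 in the other, beside 18.8%. The change of K5PIK tumours from basal cells minus that of K8PIK tumours from luminal cells gave 0 of 19 (24.1% of all genes; at an unadjusted p under 0.05, Hoxd13, -0.52 ± 0.20 with an adjusted p of 0.061, and 35.5% of all genes).

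**Figure D4:**
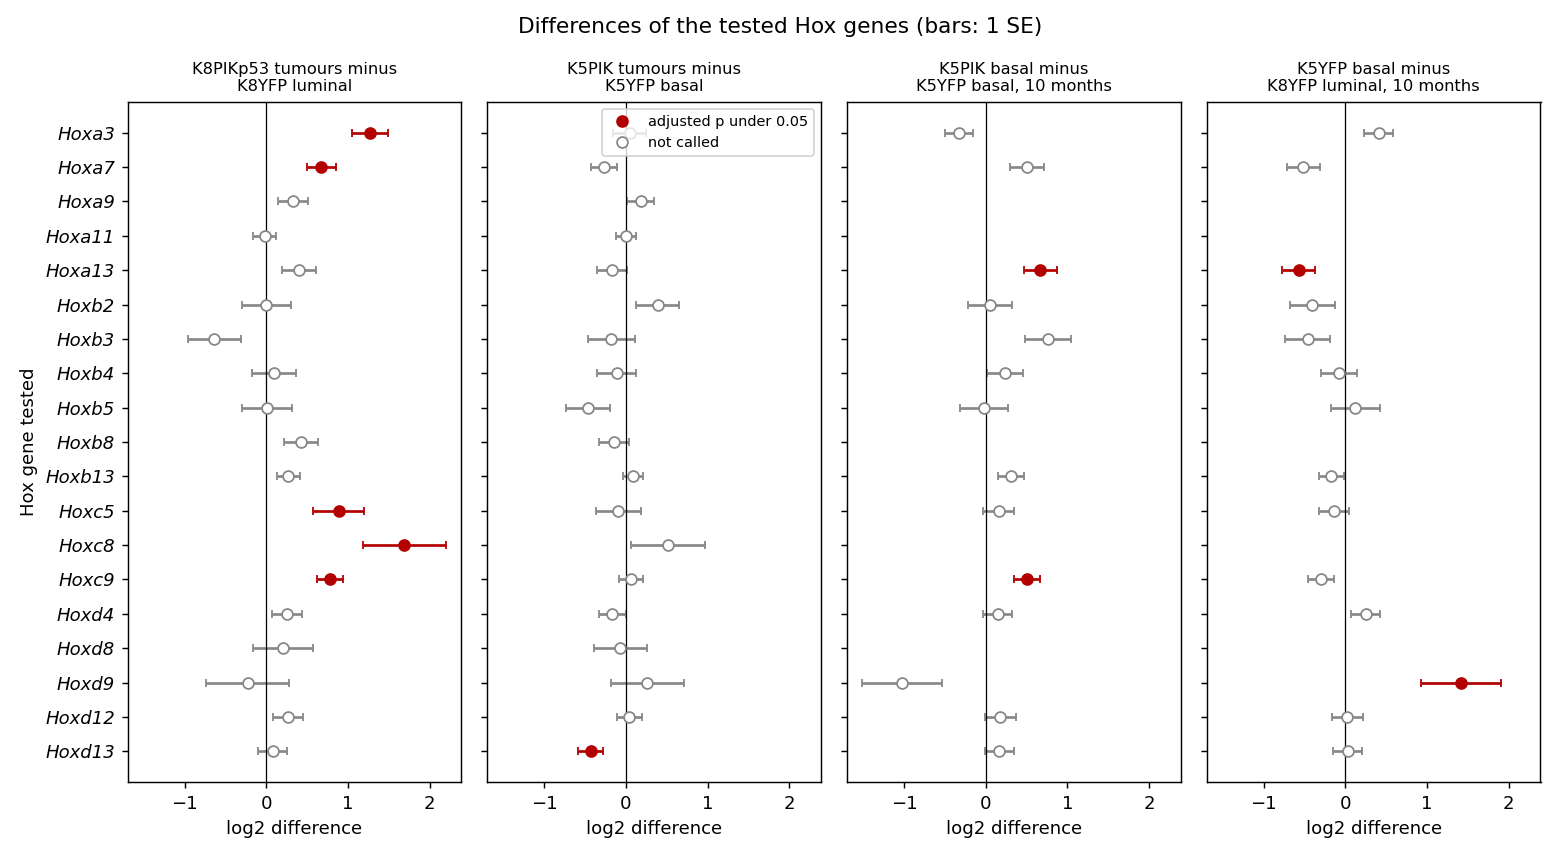
Log2 differences (horizontal axes) of the tested Hox genes in 4 comparisons (panels), with bars of 1 SE; filled points had an adjusted p under 0.05, and a gene with no point in a panel was not tested there. The called differences run from -0.57 for Hoxa13 to 1.69 for Hoxc8, and most other genes lie within 0.5 of 0. The Hoxc8 size is uncertain, since K8PIKp53 tumour replicate 1 and every K8YFP luminal array lay under the 40th percentile of the array.

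Over all comparisons, 9 of the 34 Hox genes were called at least once (26.5%), beside 57.9% of all 17097 genes. Of the 19 Hox genes tested in any fit the 9 are 47.4%, beside 72.5% of all genes tested. The 10 tested and never called were Hoxa9, Hoxa11, Hoxb2, Hoxb3, Hoxb4, Hoxb5, Hoxb13, Hoxd4, Hoxd8 and Hoxd12, with group means that spanned 0.43 (Hoxa11) to 1.12 (Hoxb3). Hoxb3 was highest in K5PIK basal cells (5.70 and 6.11), against 4.97 and 5.32 in K5YFP basal cells (0.76 ± 0.28, adjusted p = 0.0769). Its second, dimmer probe set differed by 0.17 and was not highest there. It read 3.83 and 3.80 in K5PIK basal cells, against 4.01, 4.31 and 4.00 in K5PIK tumours. The other 15 were too dim to be tested in any fit.

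Among the Hox cofactors Pbx3 and Pknox2 were higher and Meis1 lower in normal basal than in normal luminal cells. Of 9 listed cofactors 8 were measured, and 7 tested in sorted cells. In basal over luminal normal cells at 8 weeks 2 were higher and 1 lower, beside 10.4% and 19.9% of all genes, and at 10 months 3 were higher and 1 lower, beside 17.6% and 25.8%. Pbx3 averaged 6.29 ± 0.25 in K5YFP basal cells at 8 weeks, against 5.08 ± 0.15 in K8YFP luminal cells (SD, n = 2 each; difference 1.21, adjusted p = 0.00197), and 6.78 ± 0.10, against 4.94 ± 0.13, at 10 months (1.84, adjusted p = 5.69e-05). Pknox2 differed by 1.55 (adjusted p = 0.00487) and 2.76 (adjusted p = 6.04e-05) at the 2 ages, Meis1 by -0.78 (adjusted p = 0.0411) and -0.90 (adjusted p = 0.0162), and Pknox1 by 0.66 at 10 months (adjusted p = 0.0135).

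Pbx3 and Pknox2 were higher in the basal gate with the oncogene too. Pknox2 was higher in K8PIK basal over K8PIK luminal cells (2.11, adjusted p = 0.00102) and lower in K5PIK luminal than K5PIK basal cells (-3.58, adjusted p = 1.38e-05), and Pbx3 likewise (1.13, adjusted p = 0.00377, and -1.29, adjusted p = 0.00115). In K5PIK tumours over K5YFP basal cells 2 of 8 were lower, beside 14.5% of all genes: Pknox2 (-2.18, adjusted p = 0.00132) and Pbx3 (-1.43, adjusted p = 0.0135). In K8PIKp53 tumours over K8YFP luminal cells 2 of 8 were higher, beside 12.1% of all genes: Pbx3 (1.45, adjusted p = 0.0304) and Pbx2 (0.63, adjusted p = 0.04). Meis3 was lower there (-0.80, adjusted p = 0.0228), beside 11.8% of all genes. Meis1 in K5PIK luminal over K8YFP luminal cells differed by -1.21 (adjusted p = 0.0202).

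Of 26 Polycomb genes tested, 2 were higher and 4 lower in basal over luminal normal cells at 8 weeks, beside 10.4% and 19.9% of all genes, and 10 were higher and 4 lower at 10 months, beside 17.6% and 25.8%. At 10 months Pcgf6 was higher, 6.31 in K5YFP basal cells, against 4.49 in K8YFP luminal cells (adjusted p = 0.00131), and Ring1, a catalytic subunit, was lower, 6.65, against 8.19 (adjusted p = 0.00024). In K5PIK basal over K5YFP basal cells 2 were higher and 6 lower, beside 8.28% and 8.02% of all genes. In these Ring1 averaged 7.90, against 6.65 (adjusted p = 0.00583), Cbx7, a chromatin reader, 7.64, against 6.45 (adjusted p = 0.00583), and Phc2, a Polycomb complex subunit, 7.82, against 9.08 (adjusted p = 0.0182). In K8PIKp53 tumours over K8YFP luminal cells 3 were higher and 4 lower, beside 12.1% and 11.8% of all genes, Ring1 among the lower (6.51, against 8.14, adjusted p = 6.6e-05). In K5PIK tumours over K5YFP basal cells 2 were higher and 13 lower, beside 15.5% and 14.5% of all genes, with a list median of -0.51, beside 0.04 over all genes tested. Of 12 Trithorax genes, 1 was higher and 3 lower in basal over luminal cells at 8 weeks (list median -0.23) and 6 were higher and 1 lower at 10 months (list median 0.63). Psip1 was called in opposite directions at the 2 ages (-0.69, adjusted p = 0.0234, at 8 weeks and 0.62, adjusted p = 0.0268, at 10 months). For a change of the lineage difference with age, 0 of 26 Polycomb and 0 of 12 Trithorax genes were called, beside 0.0532% of all genes. Of the same 12, 0 were higher and 2 lower in K5PIK over K5YFP basal cells, and 0 and 2 in K8PIKp53 tumours over luminal cells.

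Of the retinoic acid and CDX genes (18 of 21 measured, 14 tested), 3 were higher and 2 lower in K8PIKp53 tumours over K8YFP luminal cells, beside 12.1% and 11.8% of all genes. Crabp1, a retinoic acid binding protein, averaged 10.7 in K8PIKp53 tumours, against 5.29 in K8YFP luminal cells (5.38 ± 1.03, adjusted p = 0.00145). Cyp26b1, which degrades retinoic acid, differed by 2.06 (adjusted p = 0.00928), Stra6, a retinol receptor, by 0.97 (adjusted p = 0.014), Aldh1a3, which makes retinoic acid, by -2.31 (adjusted p = 0.0298) and Dhrs3, a retinal reductase, by -1.21 (adjusted p = 0.0356). Aldh1a3 was also lower in basal than in luminal normal cells at 8 weeks (-2.06, adjusted p = 0.00741), where Cyp26b1 (1.56, adjusted p = 0.000138) and Aldh1a1 (1.18, adjusted p = 0.00527) were higher and Rarg, a retinoic acid receptor, lower (-0.97, adjusted p = 0.0185). In K5PIK tumours over K5PIK basal cells Aldh1a3 was the 1 called (2.79, adjusted p = 0.0187), beside 7.88% of all genes called higher.

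Of 30 listed genes beside the Hox clusters, 14 were measured. In basal over luminal normal cells at 8 weeks 0 of 10 tested were higher and 4 lower, beside 10.4% and 19.9% of all genes: Skap2 beside cluster a (-1.21, adjusted p = 9e-04), Smug1 (-1.07, adjusted p = 0.00132) and Cbx5 (-0.97, adjusted p = 0.00928) beside cluster c, and Mtx2 beside cluster d (-0.96, adjusted p = 0.0136). At 10 months 1 was higher, Snx10 (0.93, adjusted p = 0.0422), and 2 were lower, Skap2 and Smug1, beside 17.6% and 25.8% of all genes. In K8PIKp53 tumours over K8YFP luminal cells 1 of 12 was higher, Cbx5 (1.05, adjusted p = 0.00396), beside 12.1% of all genes. In K5PIK tumours over K5YFP basal cells 3 of 12 were higher, beside 15.5% of all genes, Skap2 (0.88, adjusted p = 0.00579), Cbx5 (0.61, adjusted p = 0.0314) and Smug1 (0.53, adjusted p = 0.0206).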

How the data were processed

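RNA of FACS-sorted mouse mammary cells and tumour cells was hybridised to Affymetrix perfect-match arrays. The authors deposited a table of log2 values for 45141 probe sets on 28 arrays; R 2.14.0 is named, per the submitters' processing notes, and the normalization is not given in the sources used here. The deposited log2 values were used without further scaling (array medians 4.40 to 4.50, replicate correlations 0.960 to 0.992). Of the probe sets, 28898 have 1 gene symbol, 551 several and 15692 none in the platform annotation; the brightest probe set was kept per gene, giving 17097 genes.

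Differences were estimated in R 4.3.3 by limma 3.58.1 from a model of group means, over the 16 sorted arrays, the 12 tumour arrays or all 28. Genes above the array's 40th percentile on at least 2 arrays of the fit were tested (13150, 13244 and 13663), with Benjamini-Hochberg adjustment and a threshold of 0.05. The fits were tested on simulated data. Depth has no meaning for arrays; their number limits the precision. Named were all called Hox genes, and, by the largest change, up to 4 called genes per list. The members and lists were chosen with earlier results of these data known. Alternatives covered the filter, probe sets, quantile normalization, variance prior, replicate block, marker covariates and each array left out. No p-value was adjusted over a list alone.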

Additional observations from a re-analysis of the deposited data

Results flagged for a closer look

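Among the 7 K8PIK tumours, replicate 2 stood apart for Hoxc9, with 5.23 in a group whose other tumours read 4.72 to 4.94; its gap to the next tumour was 0.572 of the group's whole range. The 34 Hox genes were examined this way, chance marks about 1 group in 20, and this was the 1 found. The same tumour had the highest fibroblast mean of the 7 (8.42), whose part was not tested.

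The basal-minus-luminal gap of Hoxa3 at 10 months differed between K5PIK and YFP cells by -0.93 on the log2 scale (adjusted p = 0.0445, limma interaction). The gap was negative in K5PIK cells (4.15 and 4.19 in basal cells, against 4.85 and 4.51 in luminal cells) and positive in YFP cells (4.52 and 4.47, against 4.08 and 4.09). The luminal cells of the 2 sides also differ in Cre driver, which cannot be told apart from the oncogene.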

How the results depend on the processing

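Over the 14 called Hox gene results, 72 of 100 values under alternatives other than leaving out an array kept their call, 28 of 74 with 1 array left out did, and 0 changed direction. Settings in which a gene did not pass the filter, and so could not be called, are not among these values. They were the mean of all probe sets for Hoxa3 and Hoxd13, and Hoxb8 without K5PIK tumour replicate 1. Counts of called Hox genes that moved by over 1.5 times, or to or from 0, were as follows. The cause was not tested. With all 28 arrays in the fit, 2 were called (from 1) in normal basal over luminal cells at 8 weeks (Hoxa3, Hoxb8), 1 (from 2) at 10 months (Hoxb8), 0 (from 2) in K5PIK over K5YFP basal cells, 0 (from 1) for the K5PIK-minus-YFP lineage gap, and 3 (from 0) in K8PIKp53 over K8PIK tumours (Hoxa3, Hoxa7, Hoxc9). With no filter, 2 were called at 8 weeks (Hoxa3, Hoxb8) and 1 (from 0) in K5PIK luminal over K5PIK basal (Hoxa3) and over K5YFP basal cells (Hoxb8); smaller moves were 3 (from 2) at 10 months and in K5PIK over K5YFP basal cells and 6 (from 5) in K8PIKp53 tumours over luminal cells. With the mean of all probe sets, 0 were called at 8 weeks, for the lineage gap and in K5PIK tumours over K5YFP basal cells, and 3 (from 5) in K8PIKp53 tumours over luminal cells. Quantile normalization and the trended robust prior each gave 1 (Hoxa3) in K5PIK luminal over basal cells. With the endothelial mean as covariate, 0 were called at 8 weeks, in K5PIK over K5YFP basal cells, in K5PIK tumours over K5YFP and over K5PIK basal cells and for the lineage gap, 1 at 10 months (Hoxa7), and 1 (Hoxa3) in K5PIK luminal over K5PIK basal and over K8YFP luminal cells and in K8PIK tumours over K8YFP luminal cells. With the fibroblast mean, 0 were called at both ages, in K5PIK over K5YFP basal cells and in K8PIKp53 tumours over luminal cells (from 5), and 1 (Hoxa3) in K5PIK luminal over basal cells.

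Whether replicate numbers pair the samples was not settled, and the main tests did not pair by them. Same-numbered deviations correlated at -0.08 to 0.39 over 28 pairs of sorted arrays, 12 over 0.1 and 0 under -0.1. Over 7 pairs of tumours they ran from -0.09 to 0.21, 1 over 0.1 and 0 under -0.1. Between the luminal and the basal gate the correlation was 0.36 in K5PIK cells and 0.05 in K8PIK cells. With the replicate block, 6 (from 2) were called in K5PIK tumours over K5PIK basal cells, 3 (from 0) in K8PIK tumours over K8YFP luminal cells, 2 (from 1) in K5PIK tumours over K5YFP basal cells and for the K5PIK-minus-YFP lineage gap, and 1 (from 0) in K5PIK luminal over basal cells and for the tumour change, K5 minus K8.

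With each array left out in turn, the called Hox genes numbered 0 to 2 at 8 weeks, 0 to 1 at 10 months, 0 to 1 in K5PIK over K5YFP basal cells, 0 to 1 in K5PIK tumours over K5YFP and over K5PIK basal cells, 2 to 5 in K8PIKp53 tumours over luminal cells and 0 to 2 for the K5PIK-minus-YFP lineage gap. From 0, they reached 1 in K8PIK basal over luminal cells, K5PIK luminal over K8YFP luminal and over K5YFP basal cells and the tumour change, and 2 in K5PIK luminal over basal cells and K8PIKp53 over K8PIK tumours. They stayed 0 in the other comparisons. Where an array left 1 in its group, that array was assumed to vary like the other groups. The 15 untested Hox genes were too dim for the filter.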
